A study of Mus musculus with 20 samples.

Results

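The interleukin-1 family and its receptors were followed here as 9 genes across 4 sorted populations of mouse mammary cells. The genes were the ligands Il1a, Il1b, Il33 and Il18, the receptor antagonist Il1rn, and the receptor genes Il1r1, Il1r2, Il1rap and Il1rl1. Rows of the deposited count table were taken by gene symbol, and 9 of 9 symbols were found among 46603 genes. All 9 passed the filter on low counts, which kept 17236 genes for testing. The rule itself used no measured value, but the members were chosen with earlier results of these data known.

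Cells came from the fourth inguinal glands of virgin FVB/N females aged 6 to 8 weeks, with no transgene or treatment named for any group. Each library was made from 1000 sorted cells after depletion of lineage-positive cells, and each population has 5 libraries, from the same 5 mice (numbered 2 to 6). The sort crossed a pair of gates. MRU (mammary repopulating unit) cells were CD24-medium and CD49f-high, and non-MRU cells fell outside that gate. The second gate used CD200, a membrane protein, and CD200R1, its inhibitory receptor on myeloid and other cells. Inside the MRU gate lay the CD200+CD200R1+ MRU and the remaining MRU cells; outside it lay the CD200+ non-MRU cells, negative for CD200R1, and the CD200R1+ non-MRU cells, negative for CD200. The labels describe the remaining MRU cells in one place as neither CD200- nor CD200R1-positive and in another as not double positive, so single-positive cells may or may not be among them. Mouse 4 did not supply all of its CD200R1+ non-MRU cells, since mouse 3 contributed about 10%.

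IL-1 alpha and IL-1 beta bind the receptor encoded by Il1r1, which recruits the accessory chain encoded by Il1rap and signals through MyD88 and IRAK kinases to NF-kB. The antagonist IL-1RA, from Il1rn, occupies the same receptor without signalling, and the decoy receptor from Il1r2 binds ligand but lacks the signalling domain. IL-33 is a nuclear alarmin of barrier and stromal cells and signals through ST2, encoded by Il1rl1, with the same accessory chain. IL-18 uses a receptor pair of its own, and IL-1 beta and IL-18 precursors are both cut by caspase-1 in inflammasomes. Macrophages are a well known source of Il1a and Il1b, and fibroblasts and epithelial cells of receptor transcripts.

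Il1a and Il1b are neighbours on chromosome 2, on the minus strand of GRCm38, 54.6 kb apart: Il1a at chr2:129299610-129309972 and Il1b at chr2:129364570-129371139. The 250 bases upstream of their RefSeq starts (GRCm38.p6) are shown because Il1a had the widest fold change of the 9 genes and Il1b lies beside it. Il1a is read from chr2:129309973-129310222 and Il1b from chr2:129371140-129371389, both on the minus strand and written 5′ to 3′, with motif matches in capitals.
Il1a: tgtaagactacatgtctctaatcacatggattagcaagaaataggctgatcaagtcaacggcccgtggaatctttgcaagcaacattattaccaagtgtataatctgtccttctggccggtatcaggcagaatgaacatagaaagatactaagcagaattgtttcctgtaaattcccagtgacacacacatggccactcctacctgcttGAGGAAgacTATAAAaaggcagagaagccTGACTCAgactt
Il1b: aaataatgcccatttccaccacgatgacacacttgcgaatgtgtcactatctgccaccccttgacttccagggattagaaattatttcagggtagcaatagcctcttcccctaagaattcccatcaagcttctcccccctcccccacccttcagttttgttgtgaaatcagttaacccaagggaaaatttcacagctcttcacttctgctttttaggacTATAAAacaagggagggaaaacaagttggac
Both strands were searched for a TATA box (TATAAA), for the motif of AP-1 (TGANTCA), for the core bound by PU.1, a myeloid factor (GAGGAA), and for the NF-kB consensus. None overlapped another in these windows. The Il1a window holds a PU.1 core, a TATA box and an AP-1 motif, beginning 41, 32 and 12 bases before the start, and the Il1b window holds a TATA box 31 bases before it. Among 32817 RefSeq mouse promoters of the same length, 23.3% hold the PU.1 core, 12.4% the TATA box, 6.75% the AP-1 motif and 3.9% the NF-kB consensus. A match is a description of the letters, not a site of binding.

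Libraries held 10853587 to 13862963 counts assigned to genes, so that 3 counts correspond to 0.216 to 0.276 CPM, the unit of counts scaled to the library total. Levels below are CPM scaled by TMM (edgeR's trimmed mean of M values). Every sample was labelled as epithelial, and the marker lists showed mixtures. Summed CPM of 8 basal epithelial markers ran from 13480 to 24810 in CD200+CD200R1+ MRU cells, 11220 to 18830 in remaining MRU cells, 315 to 1009 in CD200+ non-MRU cells and 76.8 to 183 in CD200R1+ non-MRU cells. Summed CPM of 9 luminal markers was 12330 to 21680 in CD200+ non-MRU cells and 46.1 to 162 in CD200R1+ non-MRU cells, so both epithelial lists were near absent from the CD200R1+ non-MRU libraries. Over 8 fibroblast markers the sums were 7100 to 17630 CPM in CD200+ non-MRU cells and 69080 to 94720 CPM in CD200R1+ non-MRU cells. In such bulk samples, fewer cells of a type and less RNA per cell cannot be told apart.

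Il1a, the alarmin form of IL-1, was highest in CD200R1+ non-MRU cells and almost absent from CD200+ non-MRU. For mice 2, 3, 4, 5 and 6, in that order here and below, it measured 12.6, 15.2, 19.1, 17.5 and 15.2 CPM in CD200+CD200R1+ MRU cells and 1.99, 34.2, 9.66, 8.80 and 26.5 CPM in remaining MRU cells. It measured 0.0789, 0, 0.603, 0 and 0 CPM in CD200+ non-MRU cells (9 counts over the group) and 124, 469, 63.6, 364 and 82.0 CPM in CD200R1+ non-MRU cells (10720 counts). All CD200R1+ non-MRU libraries lay above every other library, all CD200+ non-MRU libraries lay below every other, and the 2 MRU populations overlapped. The double-positive MRU libraries were the tightest, within 1.52-fold of each other, whereas the remaining MRU libraries spanned 17.2-fold. The transcript annotated as Gm14023 shares 222 exon bases with Il1a on the opposite strand and had 1094 counts in all libraries; whether counting used the strand is not given in the sources used here, so reads of the pair may be mixed.

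Il1b, the secreted form that caspase-1 matures, was likewise highest in CD200R1+ non-MRU cells. It measured 27.0, 44.2, 19.9, 34.7 and 36.1 CPM in CD200+CD200R1+ MRU cells and 20.2, 46.5, 22.1, 80.8 and 54.6 CPM in remaining MRU cells. The values were 2.05, 7.53, 4.22, 13.4 and 60.8 CPM in CD200+ non-MRU cells and 134, 354, 108, 507 and 64.5 CPM in CD200R1+ non-MRU cells. The CD200+ non-MRU library of mouse 6 stood apart above its group and within the MRU range, and the lowest CD200R1+ non-MRU library, also of mouse 6, fell below the highest remaining MRU library. Il1a and Il1b were high in the same CD200R1+ non-MRU libraries, those of mice 3 and 5.

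To compare genes, levels were taken per kilobase of exon, with all annotated exons of a gene merged. On this scale the level of Il1a was 0.521 ± 0.235 times that of Il1b in CD200+CD200R1+ MRU cells and 0.360 ± 0.261 times in remaining MRU cells (SD, n = 5 each). The ratio was 0.0350 ± 0.0598 in CD200+ non-MRU cells, where 3 of 5 libraries had no Il1a count, and 0.932 ± 0.317 in CD200R1+ non-MRU cells. An almost pure Il1b profile in CD200+ non-MRU cells thus stood beside near-equal ligand levels in CD200R1+ non-MRU cells, although the 3 populations with Il1a overlapped in this ratio.

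Macrophage markers were lowest where both ligands were lowest, in CD200+ non-MRU cells, but highest in CD200+CD200R1+ MRU cells, where the ligands were not. Summed CPM of 10 macrophage markers was 2908 to 6103 in CD200+CD200R1+ MRU cells, 1458 to 2338 in remaining MRU cells, 91.8 to 290 in CD200+ non-MRU cells and 1321 to 3525 in CD200R1+ non-MRU cells, with no marker at 0 throughout a group. Of the 10 markers, 6 passed as higher and 0 as lower in CD200+CD200R1+ MRU cells than in remaining MRU cells, a comparison in which neither Il1a nor Il1b passed. As a percentage of that sum, Il1a had a median of 0.433% in CD200+CD200R1+ MRU cells (range 0.313 to 0.5), 0.483% in remaining MRU cells (0.133 to 1.82) and 6.21% in CD200R1+ non-MRU cells (2.51 to 13.3). The same percentage for Il1b had a median of 0.976% in CD200+CD200R1+ MRU cells (0.325 to 1.19), 1.99% in remaining MRU cells (1.06 to 4.44), 8.03% in CD200+ non-MRU cells (2.06 to 20.96) and 4.88% in CD200R1+ non-MRU cells (3.96 to 16.7). Relative to these markers, CD200R1+ non-MRU libraries lay above both MRU populations in Il1a, and in Il1b above the double-positive MRU libraries but overlapping with remaining MRU and CD200+ non-MRU, although the double-positive MRU libraries overlapped with CD200R1+ non-MRU in the marker sum and reached higher. The part of macrophages in the ligand differences was not tested.

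**Figure D1:**
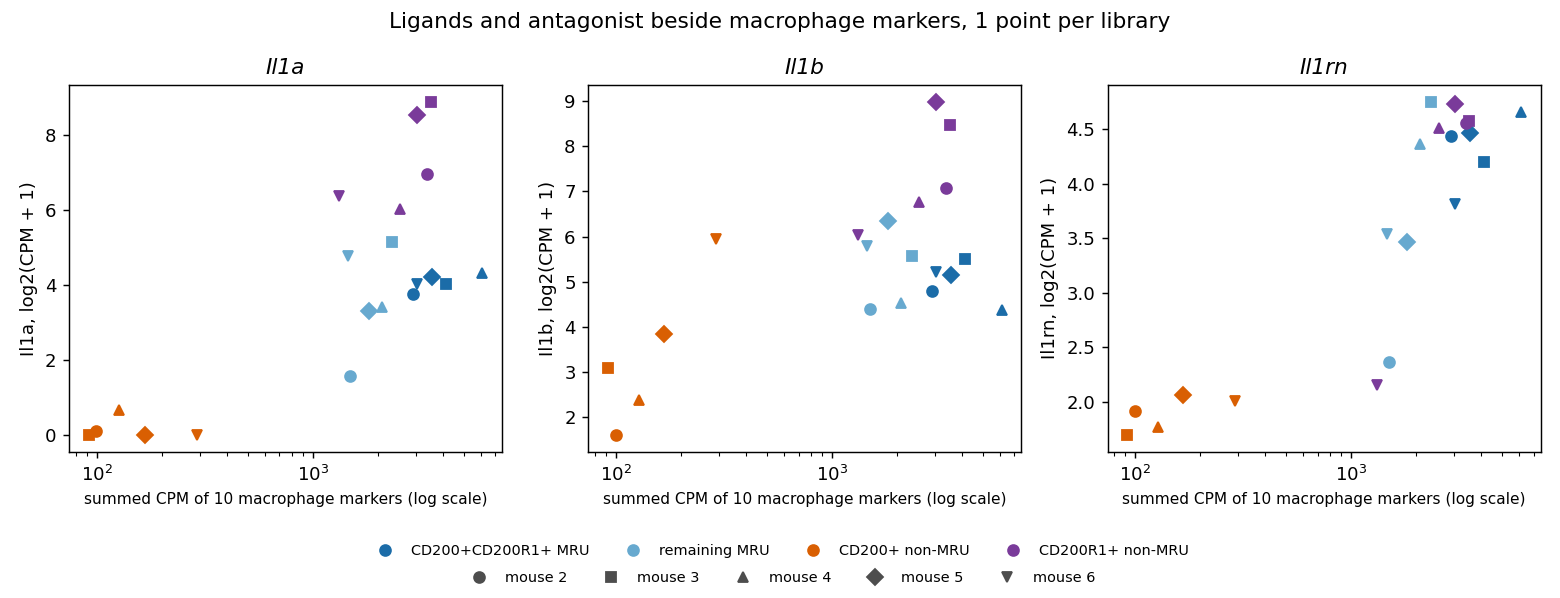
Levels of Il1a, Il1b and Il1rn as log2(CPM + 1) against the summed CPM of 10 macrophage markers on a log axis; each point is 1 library, coloured by population, with the mouse as the symbol. The Il1a and Il1b points of CD200R1+ non-MRU lie above those of CD200+CD200R1+ MRU at similar or lower marker sums, whereas their Il1rn points, apart from mouse 6, lie among those of the MRU populations.

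Il33, the nuclear alarmin, had a different pattern and peaked in CD200+ non-MRU cells. It measured 55.4, 19.1, 23.3, 36.0 and 27.3 CPM in CD200+CD200R1+ MRU cells and 53.3, 28.0, 42.0, 88.2 and 43.6 CPM in remaining MRU cells. In CD200+ non-MRU it reached 413, 308, 309, 408 and 108 CPM, and in CD200R1+ non-MRU cells it stayed at 20.4, 46.9, 9.97, 27.4 and 38.9 CPM. Every CD200+ non-MRU library lay above every other library, the lowest being that of mouse 6, and the other 3 populations overlapped. That library also had the lowest fibroblast marker sum of its group, 7100 CPM against 14620 to 17630 CPM in the other 4. Its basal epithelial sum was lowest too, 314.5 CPM against 692.5 to 1009 CPM, while its luminal sum of 18460 CPM was within the group's range. Across populations, fibroblast sums were highest in CD200R1+ non-MRU cells, at 69080 to 94720 CPM, where Il33 was lowest by mean. The part of these cell types was not tested.

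Il18, whose product is stored as a precursor in many epithelia and macrophages, separated the MRU gate from the rest. Its level was 2.84, 4.78, 5.74, 4.68 and 7.14 CPM in CD200+CD200R1+ MRU cells and 1.51, 3.28, 3.96, 3.11 and 4.76 CPM in remaining MRU cells. Outside the gate it was 22.2, 24.3, 18.0, 15.2 and 16.0 CPM in CD200+ non-MRU cells and 16.0, 18.5, 7.83, 19.7 and 9.86 CPM in CD200R1+ non-MRU cells. All 10 MRU libraries lay below all 10 non-MRU libraries, with overlap within each gate.

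The antagonist gene Il1rn was low in CD200+ non-MRU cells and higher in the other 3 populations. It measured 20.7, 17.3, 24.2, 21.0 and 13.04 CPM in CD200+CD200R1+ MRU cells and 4.14, 26.0, 19.6, 10.1 and 10.6 CPM in remaining MRU cells. The values were 2.76, 2.23, 2.41, 3.16 and 3.02 CPM in CD200+ non-MRU cells and 22.5, 22.8, 21.7, 25.5 and 3.46 CPM in CD200R1+ non-MRU cells. Each library of the other populations lay above the CD200+ non-MRU range, mouse 6 of CD200R1+ non-MRU by the narrowest margin. That library also had the lowest macrophage marker sum of its group, 1321 CPM against 2537 to 3525 CPM. Per kilobase of exon, Il1rn made up 12.6 ± 4.11% of Il1rn, Il1a and Il1b together in CD200+CD200R1+ MRU cells, 8.39 ± 5.76% in remaining MRU cells, 12.8 ± 11.1% in CD200+ non-MRU cells and 2.00 ± 1.53% in CD200R1+ non-MRU cells (SD, n = 5 each). The antagonist share of every double-positive MRU library, 8.13 to 17.9%, lay above that of every CD200R1+ non-MRU library, 0.822 to 4.22%.

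**Figure D2:**
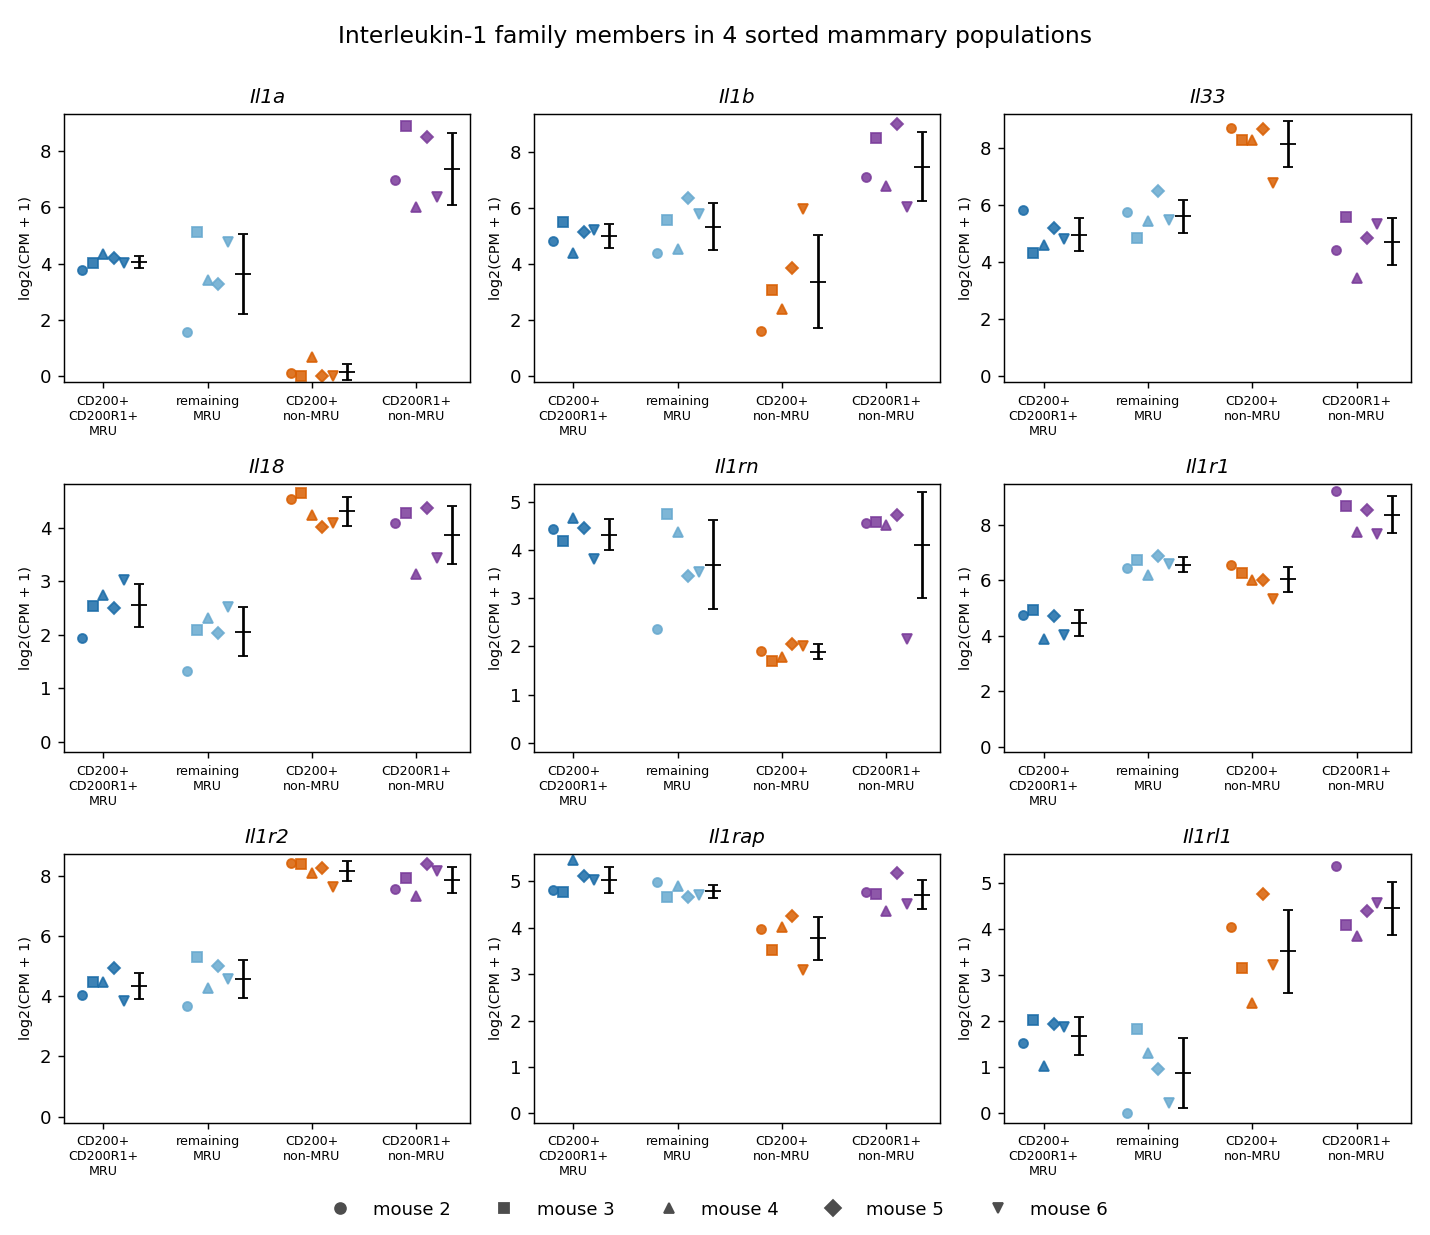
Levels of the 9 genes as log2(CPM + 1) in each library, by population, with the mouse as the symbol; the horizontal mark and bar at the right of each group are the mean and SD of 5 libraries. Il33 stands highest in CD200+ non-MRU cells, Il1a, Il1b and Il1r1 in CD200R1+ non-MRU cells, and Il18, Il1r2 and Il1rl1 are higher in both non-MRU populations than in both MRU populations.

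Il1r1, the signalling receptor for both IL-1 ligands, was highest in CD200R1+ non-MRU cells and lowest in the double-positive MRU cells. It measured 26.0, 29.8, 13.8, 25.3 and 15.2 CPM in CD200+CD200R1+ MRU cells and 87.2, 106, 72.8, 116 and 94.4 CPM in remaining MRU cells. It measured 92.8, 76.5, 63.9, 64.4 and 38.9 CPM in CD200+ non-MRU cells and 593, 408, 215, 374 and 201 CPM in CD200R1+ non-MRU cells. The double-positive MRU range lay below all other libraries and the CD200R1+ non-MRU range above them, with overlap between remaining MRU and CD200+ non-MRU. Receptor and ligand were thus highest in the same sorted population, which the marker lists show to be a mixture of at least fibroblast and macrophage transcripts.

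Il1r2, the decoy receptor gene, was high in both non-MRU populations and low in both MRU populations. It measured 15.4, 21.0, 21.1, 29.7 and 13.3 CPM in CD200+CD200R1+ MRU cells and 11.6, 38.3, 18.5, 30.8 and 22.6 CPM in remaining MRU cells. Non-MRU values were 338, 337, 269, 301 and 195 CPM in CD200+ non-MRU cells and 186, 242, 160.1, 336 and 281 CPM in CD200R1+ non-MRU cells. The 2 gates did not overlap, and the populations within each gate did.

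The balance of decoy to signalling receptor differed between populations. Per kilobase of exon, Il1r2 made up 74.9 ± 6.93% of Il1r1 and Il1r2 together in CD200+CD200R1+ MRU cells, 44.6 ± 8.67% in remaining MRU cells, 93.5 ± 0.749% in CD200+ non-MRU cells and 69.2 ± 11.7% in CD200R1+ non-MRU cells (SD, n = 5 each). The CD200+ non-MRU libraries lay within 92.4 to 94.4%, above every other library. The double-positive MRU libraries, at 66.4 to 83.6%, lay above all remaining MRU libraries, at 30.8 to 54.7%, and overlapped with CD200R1+ non-MRU, at 51.1 to 82.3%. The size of the share depends on the merged exon lengths, 6363 bases for Il1r1 and 1908 for Il1r2. Without them, CD200R1+ non-MRU cells averaged 358 CPM of Il1r1 and 241 CPM of Il1r2. Transcript shares say nothing of receptor protein at the surface.

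**Figure D3:**
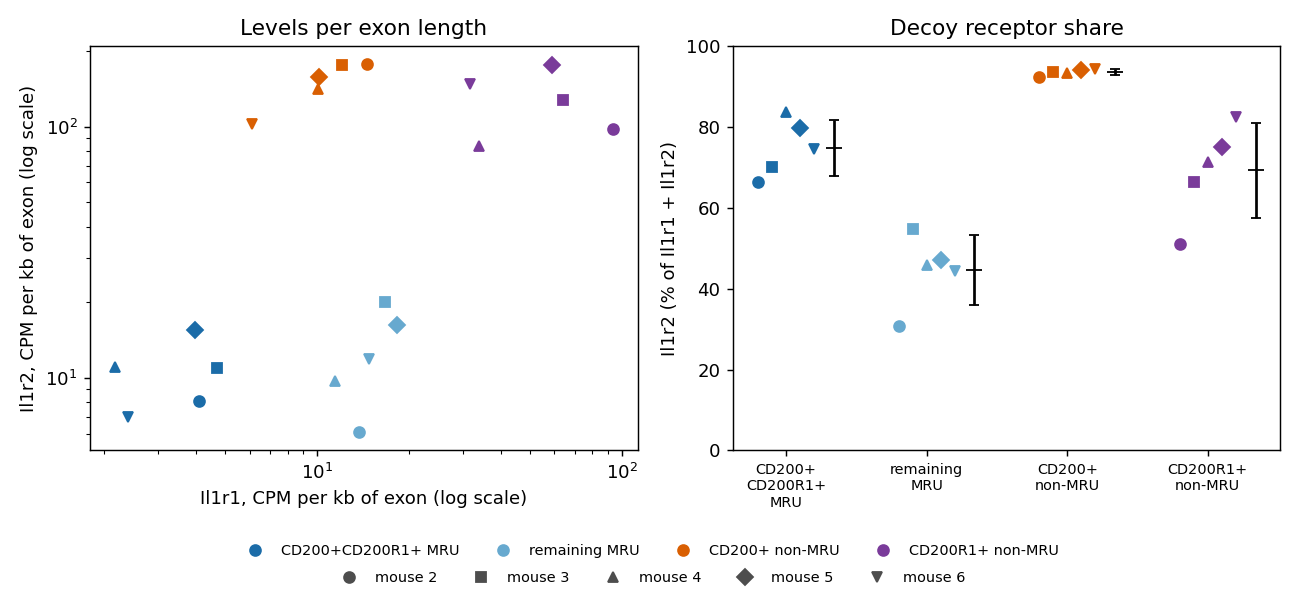
Left, Il1r2 against Il1r1, both in CPM per kilobase of exon on log axes, 1 point per library; right, Il1r2 as a percentage of Il1r1 plus Il1r2 by population, with the mean and SD of 5 libraries. CD200+ non-MRU libraries sit at 92.4 to 94.4%, and remaining MRU libraries lie lowest on average, at 44.6%.

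Il1rap, the accessory chain shared by the IL-1 and IL-33 receptors, varied least between populations, by mean. It measured 27.0, 26.2, 43.2, 33.8 and 31.4 CPM in CD200+CD200R1+ MRU cells and 30.5, 24.4, 28.9, 24.3 and 25.1 CPM in remaining MRU cells. In CD200+ non-MRU it was 14.7, 10.5, 15.3, 18.0 and 7.50 CPM, and in CD200R1+ non-MRU cells 26.1, 25.6, 19.6, 35.3 and 21.9 CPM. CD200+ non-MRU lay below the other 3 populations, which overlapped. The gene Gm20319 shares 552 exon bases with Il1rap on the opposite strand but had only 3 counts in all libraries.

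Il1rl1, which encodes the IL-33 receptor ST2, was low in MRU cells. It measured 1.87, 3.10, 1.06, 2.84 and 2.70 CPM in CD200+CD200R1+ MRU cells and 0, 2.56, 1.49, 0.962 and 0.167 CPM in remaining MRU cells. It was 15.5, 7.95, 4.29, 26.3 and 8.32 CPM in CD200+ non-MRU cells and 40.3, 16.0, 13.5, 19.95 and 22.9 CPM in CD200R1+ non-MRU cells. All MRU libraries lay below all non-MRU libraries, and the non-MRU populations overlapped. ST2 is well known from mast cells, and summed CPM of 9 mast cell and basophil markers was highest, 832, in the CD200+ non-MRU library of mouse 5. That library also had the highest Il1rl1 of its group, but the orders otherwise differed there. Mouse 3 had the next highest marker sum, 271 CPM, with 7.95 CPM of Il1rl1, and mouse 2 the lowest sum, 26.6 CPM, with 15.5 CPM. In CD200R1+ non-MRU, where Il1rl1 was highest by mean, the marker sum was 2.12 to 11.6 CPM with Mcpt8 at 0. Summed CPM of 10 T cell and innate lymphoid markers, another class with cells that carry ST2, was 207 to 297 in CD200+CD200R1+ MRU cells, 157 to 274 in remaining MRU cells, 597 to 1279 in CD200+ non-MRU cells and 569 to 673 in CD200R1+ non-MRU cells. As with Il1rl1, the 2 gates did not overlap in that sum. Of its 10 markers, however, 5 passed as lower and 1 as higher in each MRU population than in CD200R1+ non-MRU cells. Against CD200+ non-MRU, 9 were lower in each, with 1 higher in double-positive MRU and 0 in remaining MRU cells. Fibroblast sums did not overlap between the gates either, at 968 to 1562 CPM in CD200+CD200R1+ MRU and 653 to 1239 CPM in remaining MRU cells. The part of these cell types was not tested. In the IL-33 arm, the ligand gene Il33 peaked in CD200+ non-MRU cells, while the receptor gene Il1rl1 was highest by mean in CD200R1+ non-MRU cells. The Il1rl1 difference between these 2 populations did not pass (log2 fold change -0.85 ± 0.54, edgeR adjusted p = 0.2).

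Between the MRU populations, the signalling receptor alone among the 9 genes passed the test. Il1r1 averaged 22.0 ± 7.09 CPM in CD200+CD200R1+ MRU cells and 95.2 ± 16.7 CPM in remaining MRU cells (SD, n = 5 each), a 4.32-fold lower level in the double-positive cells. Its log2 fold change was -2.11 ± 0.29 (SE) with an edgeR quasi-likelihood adjusted p of 2.7e-05 (Benjamini-Hochberg over 17236 genes), and it was lower in 5 of 5 mice. This is 1 of 9 members called, beside 8.26% of all genes tested (1.62% higher and 6.64% lower). The median log2 fold change of the members was -0.03 and that of all genes 0.02. Endothelial markers fell in 8 of 8 cases in the same comparison, with sums of 58.6 to 190.5 CPM in CD200+CD200R1+ MRU cells and 1703 to 2325 CPM in remaining MRU cells, and 6 of 7 pericyte and 3 of 7 adipocyte markers were also lower. Their part in the Il1r1 difference was not tested. Il18 was higher in the double-positive cells of 5 of 5 mice without passing (log2 fold change 0.60 ± 0.31, edgeR adjusted p = 0.3).

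Within non-MRU cells, CD200+ cells carried more Il33 and less of the IL-1 ligands, antagonist and signalling receptor than CD200R1+ cells. Il33 averaged 309 ± 123 CPM in CD200+ non-MRU cells and 28.7 ± 14.6 CPM in CD200R1+ non-MRU cells, a log2 fold change of 3.43 ± 0.42 with an edgeR adjusted p of 7.2e-07. Il1b averaged 17.6 ± 24.5 CPM in CD200+ non-MRU cells and 234 ± 189 CPM in CD200R1+ non-MRU cells (log2 fold change -3.74 ± 0.73, edgeR adjusted p = 0.00019). The fold changes of Il1r1 (-2.41), Il1rn (-2.82) and Il1rap (-0.96) also passed, with edgeR adjusted p of 4.5e-07, 1.9e-05 and 0.00061. Il1a had the widest difference of the 9, at 0.136 ± 0.263 CPM in CD200+ non-MRU cells and 221 ± 184 CPM in CD200R1+ non-MRU cells. Its fitted log2 fold change of -10.56 ± 0.97 (edgeR adjusted p = 1.2e-08) rests on 9 counts, 8 of them in mouse 4, and became -12.87 without that library, a fitted value that then depends on edgeR's prior count. Without the CD200+ library of mouse 6, the change of Il1b became -5.09. In all, 6 of 9 members passed, beside 52.5% of all genes tested (23.8% higher and 28.6% lower), and Il1r2, Il1rl1 and Il18 did not, with log2 fold changes of 0.26, -0.85 and 0.41. Il1rl1 did pass by limma voom, at -1.0 with an adjusted p of 0.0397. The members' median was -0.96, that of all genes -0.06.

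Set against CD200+ non-MRU, the double-positive MRU cells had more Il1a, Il1rn and Il1rap and less Il33, Il18, Il1rl1, Il1r1 and Il1r2. The antagonist Il1rn averaged 19.3 ± 4.25 CPM in CD200+CD200R1+ MRU cells and 2.72 ± 0.394 CPM in CD200+ non-MRU cells, a 7.07-fold difference (edgeR adjusted p = 2.6e-05). The decoy receptor ran the other way, with Il1r2 at 20.1 ± 6.35 CPM in CD200+CD200R1+ MRU cells and 288 ± 59.2 CPM in CD200+ non-MRU cells, 14.3-fold lower in the MRU cells (edgeR adjusted p = 2.2e-09). Il33 was 9.59-fold lower (edgeR adjusted p = 1.9e-06). Il1a had a fitted log2 fold change of 6.77 ± 0.97, or 9.14 without the CD200+ non-MRU library of mouse 4. Il1b did not pass (0.88 ± 0.67, edgeR adjusted p = 0.29) but did without the CD200+ non-MRU library of mouse 6, at 2.30 with an edgeR adjusted p of 0.00323, and by limma voom, at 1.84 with an adjusted p that rounds to 0.05. Thus 8 of 9 members passed, beside 48.5% of all genes (23.9% higher and 24.6% lower), with a median of -1.61 for the members and -0.03 for all genes. In the same comparison macrophage markers were higher in 10 of 10 cases and fibroblast markers lower in 8 of 8. As a percentage of the macrophage marker sum, Il1rn had a median of 0.430% in CD200+CD200R1+ MRU cells (0.397 to 0.71). In CD200+ non-MRU cells the median was 1.90% (1.04 to 2.77). The part of these cell types was not tested.

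Remaining MRU cells likewise had more of the antagonist and less decoy receptor than CD200+ non-MRU cells, the libraries that also served in the comparison above. Il1a, Il1rn and Il1rap were higher in remaining MRU cells, with log2 fold changes of 6.79, 2.37 and 1.01, and Il33, Il1rl1, Il1r2 and Il18 were lower, at -2.60, -3.58, -3.56 and -2.52. The change of Il1a became 9.15 without the CD200+ non-MRU library of mouse 4, and that of Il1rl1 became -4.19 without the remaining MRU library of mouse 3. This made 7 of 9 members, beside 44.1% of all genes (24.1% higher and 20.1% lower), and edgeR adjusted p ran from 6.3e-09 to 0.00049. Il1r1 averaged 95.2 ± 16.7 CPM in remaining MRU cells and 67.3 ± 19.8 CPM in CD200+ non-MRU cells and did not pass (0.50 ± 0.27, edgeR adjusted p = 0.15), nor did Il1b (1.36 ± 0.68, edgeR adjusted p = 0.11). With the mouse as a block both passed, Il1r1 at 0.55 with an edgeR adjusted p of 0.02 and Il1b at 1.69 with 0.0261, so that 9 of 9 members were called. Among all genes, 8081 passed with the block and 7608 without it. Il1b also passed without the CD200+ non-MRU library of mouse 6, at 2.75 with an edgeR adjusted p of 0.000861, and by limma voom, at 2.17 with an adjusted p of 0.0228. The members' median was 0.50, that of all genes 0.01. Here too macrophage markers were higher in 10 of 10 cases and fibroblast markers lower in 8 of 8. Relative to the macrophage marker sum, Il1rn had a median of 0.728% in remaining MRU cells (0.277 to 1.11). The CD200+ non-MRU median was 1.90% (1.04 to 2.77). The part of these cell types was not tested.

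Against CD200R1+ non-MRU, the double-positive MRU cells had less of 6 members and more of none by the test. Il1r1 averaged 22.0 ± 7.09 CPM in CD200+CD200R1+ MRU cells and 358 ± 160.4 CPM in CD200R1+ non-MRU cells, 16.2-fold lower (log2 fold change -4.02 ± 0.31, edgeR adjusted p = 5.8e-10). The other receptors Il1r2 and Il1rl1 were lower by log2 fold changes of -3.58 and -3.28. The ligands Il1a, Il1b and Il18 were lower too, at -3.79, -2.85 and -1.51, with edgeR adjusted p of 2.9e-05, 0.0019 and 0.00028. Il1rn, the antagonist gene of the IL-1 arm, did not pass and averaged 19.3 ± 4.25 CPM in CD200+CD200R1+ MRU cells and 19.2 ± 8.91 CPM in CD200R1+ non-MRU cells (log2 fold change 0.00 ± 0.41, edgeR adjusted p = 0.99). Macrophage markers passed higher in 2 of 10 cases and lower in 0 in the same comparison, and fibroblast markers lower in 8 of 8. The part of these cell types was not tested. The 6 of 9 members stand beside 46.8% of all genes called, 22.8% higher and 24.0% lower, and the members' median of -2.85 beside 0.01.

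Remaining MRU cells had less Il1a, Il1b, Il18, Il1r1, Il1r2 and Il1rl1 than CD200R1+ non-MRU cells, whose libraries are the ones used in the comparison above. Il1r1 averaged 95.2 ± 16.7 CPM in remaining MRU cells and 358 ± 160.4 CPM in CD200R1+ non-MRU cells, with a log2 fold change of -1.91 ± 0.28 (edgeR adjusted p = 8.6e-06). Il1a and Il1b had log2 fold changes of -3.76 and -2.38, Il18 of -2.11, Il1r2 of -3.30 and Il1rl1 of -4.43, the last becoming -5.05 without the remaining MRU library of mouse 3. Here macrophage markers passed higher in 1 of 10 cases and lower in 3, and fibroblast markers lower in 8 of 8. The part of these cell types was not tested. Il33 had 51.0 ± 22.7 CPM in remaining MRU cells and 28.7 ± 14.6 CPM in CD200R1+ non-MRU cells and did not pass (0.83 ± 0.39, edgeR adjusted p = 0.093), but did without mouse 3 of either population, at 1.08 without the CD200R1+ non-MRU library and 1.03 without the remaining MRU library (edgeR adjusted p = 0.0407 and 0.0479). Again 6 of 9 members passed, beside 44.1% of all genes called, 22.4% higher and 21.6% lower, with medians of -2.11 and 0.02. In the 3 comparisons with CD200R1+ non-MRU, 6 members were also called when the library with added cells of mouse 3 was left out.

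**Figure D4:**
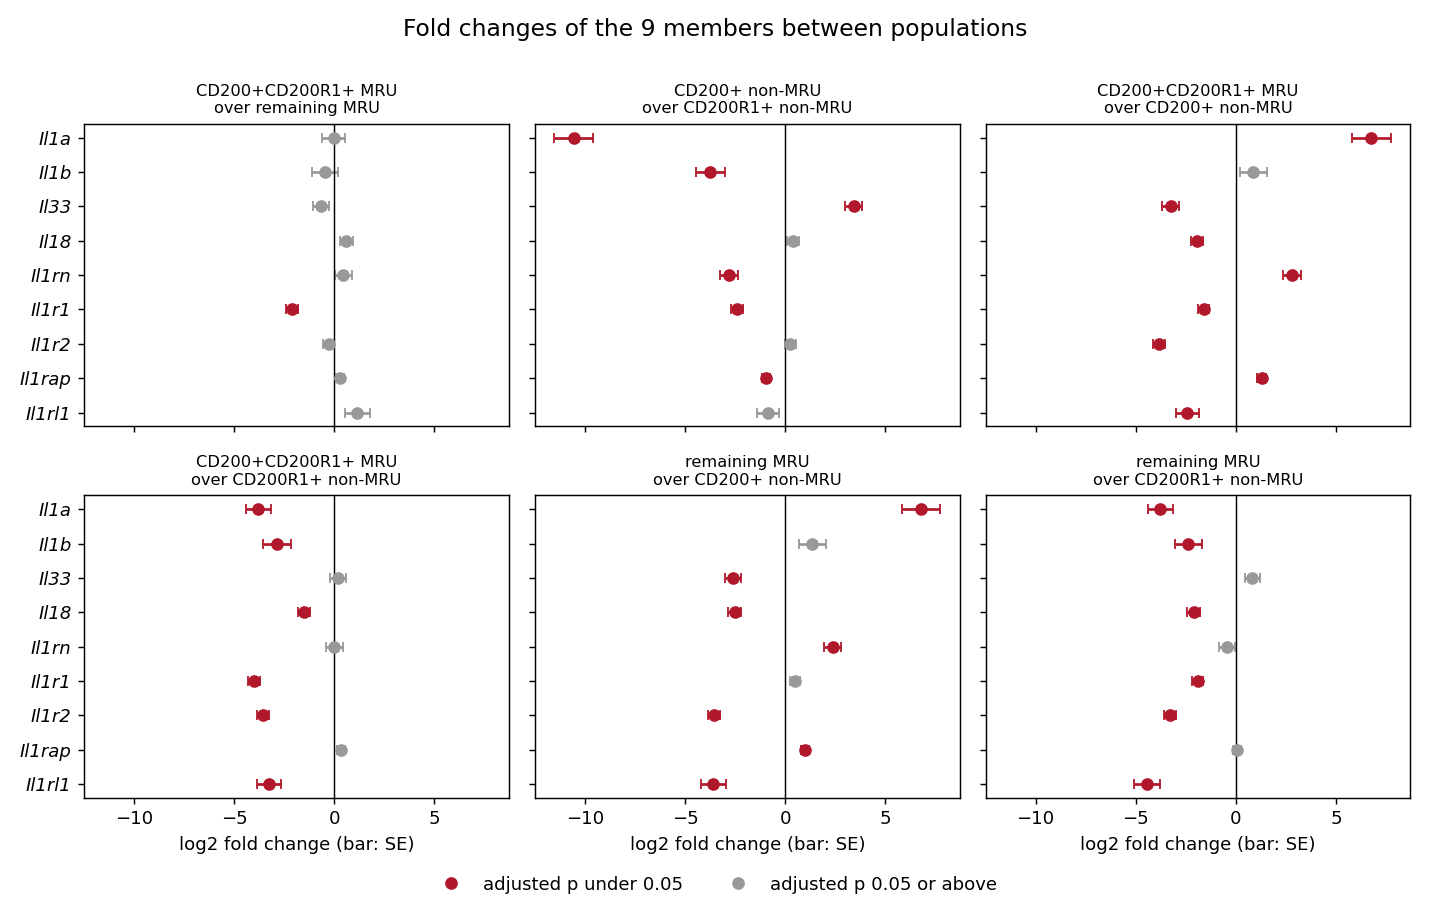
Log2 fold changes of the 9 genes with their standard errors in the 6 comparisons, each titled by the population on top of the ratio and the one it was set over; red points had an adjusted p under 0.05 in edgeR's quasi-likelihood test. Between the MRU populations only Il1r1 is red, and in both comparisons of MRU cells with CD200R1+ non-MRU every red point is below 0.

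Ordered by mean, neighbours often did not differ. Il1a fell into 3 levels, CD200R1+ non-MRU, both MRU populations and CD200+ non-MRU, with a passed test at each step. Il1b, by contrast, separated only CD200R1+ non-MRU from the next population, and for Il33 only the step down from CD200+ non-MRU passed. Il18, Il1r2 and Il1rl1 passed only at the step between the gates, and Il1rn and Il1rap only at the step to CD200+ non-MRU, the lowest. Il1r1 passed at the top step and at the bottom step but not between remaining MRU and CD200+ non-MRU.

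Other family members were scarce. Il1f6, Il1f8, Il1f9 and Il1f5, which encode the IL-36 ligands and their antagonist, had at most 46 counts over a group of 5 libraries and were not tested. Il1f10, which encodes IL-38, had 13 counts in CD200+CD200R1+ MRU cells, 2 in remaining MRU cells, 173 in CD200+ non-MRU cells and 60 in CD200R1+ non-MRU cells, or 0.196 ± 0.209, 0.0296 ± 0.0662, 2.62 ± 0.562 and 1.22 ± 0.371 CPM. It passed as lower in both MRU populations than in either non-MRU population.

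Of 7 other receptors and binding proteins, 5 were tested. Sigirr, an inhibitory receptor of the family, averaged 4.72 ± 1.87 CPM in CD200+CD200R1+ MRU cells and 13.7 ± 0.844 CPM in remaining MRU cells (edgeR adjusted p = 0.0029), and 17.6 ± 4.16 CPM in CD200+ non-MRU cells against 1.58 ± 1.10 CPM in CD200R1+ non-MRU cells (edgeR adjusted p = 6.4e-08). Il18r1, which encodes the IL-18 binding chain, was 18.0-fold higher in CD200+ non-MRU cells, at 19.1 ± 3.83 CPM, than in CD200R1+ non-MRU cells, at 1.05 ± 0.476 CPM. T cell and innate lymphoid markers were higher in 8 of 10 cases and lower in 2 in the same comparison, and their part was not tested. Il1rl2, the IL-36 receptor gene, averaged 7.76 ± 2.63 CPM in CD200+CD200R1+ MRU cells, 5.47 ± 0.994 CPM in remaining MRU cells, 24.2 ± 6.97 CPM in CD200+ non-MRU cells and 81.3 ± 18.9 CPM in CD200R1+ non-MRU cells, where it was highest. Of the 5 tested, 2 were lower and 0 higher in CD200+CD200R1+ MRU cells than in remaining MRU cells, beside 6.64% and 1.62% of all genes. In CD200+ over CD200R1+ non-MRU, 3 were higher and 1 lower, beside 23.8% and 28.6%.

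Inflammasome genes were mostly called in both directions within a comparison. Of 10 tested out of 12 listed, 0 were higher and 3 lower in CD200+CD200R1+ MRU cells than in remaining MRU cells, beside 1.62% and 6.64% of all genes, with a median log2 fold change of 0.07 beside 0.02. The 3 were Casp8, Casp4 and Txnip, of which Casp4 lost its call in 7 of 16 alternatives and Txnip in 10. In CD200+ over CD200R1+ non-MRU, 6 were higher and 2 lower, beside 23.8% and 28.6% of all genes, with a median of 0.84 beside -0.06. The sensor Nlrp3 was lowest in CD200+ non-MRU cells, with 23.6 ± 7.37 CPM in CD200+CD200R1+ MRU cells, 11.3 ± 3.48 CPM in remaining MRU cells, 0.747 ± 0.770 CPM in CD200+ non-MRU cells and 19.6 ± 9.69 CPM in CD200R1+ non-MRU cells. Its log2 fold change in CD200+ over CD200R1+ non-MRU was -4.72 ± 0.57 (edgeR adjusted p = 5.7e-07) and became -5.49 without the CD200+ library of mouse 6. Macrophage markers were lower in 10 of 10 cases in the same comparison, and their part was not tested. Nek7, an Nlrp3 partner, went the other way there, at 189 ± 35.3 CPM in CD200+ non-MRU cells and 85.8 ± 10.9 CPM in CD200R1+ non-MRU cells (edgeR adjusted p = 1.3e-06). Each MRU population was also set against each non-MRU population: 2 higher and 4 lower (double-positive over CD200+), 4 and 2 (double-positive over CD200R1+), 3 and 6 (remaining over CD200+) and 3 and 2 (remaining over CD200R1+), beside 44.1 to 48.5% of all genes called in either direction.

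Among 23 receptor signalling genes, all tested, 4 were lower and 0 higher in CD200+CD200R1+ MRU cells than in remaining MRU cells, beside 6.64% lower and 1.62% higher among all genes, and the median log2 fold changes were 0.01 and 0.02. The inhibitory kinase gene Irak3 averaged 11.1 ± 2.26 CPM in CD200+CD200R1+ MRU cells, 26.5 ± 2.31 CPM in remaining MRU cells, 116 ± 43.1 CPM in CD200+ non-MRU cells and 104 ± 40.8 CPM in CD200R1+ non-MRU cells. Nfkbia, the NF-kB inhibitor gene that NF-kB itself induces, averaged 1420.0 ± 119.9 CPM in CD200+CD200R1+ MRU cells and 3111 ± 221 CPM in remaining MRU cells (edgeR adjusted p = 1.2e-07). Other genes of the list were ordered otherwise. Rel, which encodes an NF-kB subunit, averaged 224.5 ± 43.1 CPM in CD200+CD200R1+ MRU cells, 165 ± 24.3 CPM in remaining MRU cells, 408 ± 97.6 CPM in CD200+ non-MRU cells and 135 ± 32.5 CPM in CD200R1+ non-MRU cells. In CD200+ against CD200R1+ non-MRU, 6 genes were higher and 6 lower, beside 23.8% and 28.6% of all genes, with a median of -0.04 beside -0.06. In the 4 comparisons of MRU with non-MRU, 2 or 3 were higher and 7 to 9 lower, beside 22.4 to 24.1% and 20.1 to 24.6% of all genes.

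Genes that IL-1 is known to induce in stromal and epithelial cells were counted over a list of 20, all tested; many other signals induce them too. In CD200+CD200R1+ MRU, 4 were lower and 1 higher than in remaining MRU cells, beside 6.64% and 1.62% of all genes, with a median log2 fold change of 0.04 beside 0.02. Il6, the cytokine interleukin-6, averaged 107 ± 43.1 CPM in CD200+CD200R1+ MRU cells and 882 ± 141 CPM in remaining MRU cells, 8.22-fold lower (edgeR adjusted p = 1e-06). Csf3, the granulocyte growth factor G-CSF, was 14.9-fold lower, at 30.5 ± 16.1 CPM in CD200+CD200R1+ MRU cells and 454 ± 134 CPM in remaining MRU cells (edgeR adjusted p = 5.5e-05). Csf3 was lowest in CD200R1+ non-MRU cells, at 7.27 ± 6.62 CPM. The endothelial, pericyte and adipocyte markers that were lower between the MRU populations moved in the same direction as Il6 and Csf3 there, and their part was not tested.

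The same list split in the other comparisons. In CD200+ non-MRU, 13 genes were lower and 2 higher than in CD200R1+ non-MRU cells, beside 28.6% lower and 23.8% higher among all genes, and the median log2 fold changes were -1.55 and -0.06. The neutrophil chemokine gene Cxcl2 averaged 195 ± 72.8 CPM in CD200+ non-MRU cells and 2111 ± 1007 CPM in CD200R1+ non-MRU cells (edgeR adjusted p = 3.7e-08). Lcn2, which encodes lipocalin-2 and is abundant in luminal epithelium, ran against the list at 3229 ± 872 CPM in CD200+ non-MRU cells and 8.37 ± 7.22 CPM in CD200R1+ non-MRU cells (edgeR adjusted p = 3.6e-11). By mean, Lcn2 was highest in MRU cells, at 5696 ± 1876 CPM in double-positive and 3950 ± 1002 CPM in remaining MRU cells. Luminal marker sums there were 2571 to 4950 and 2590 to 5110 CPM, below the 12330 to 21680 CPM of CD200+ non-MRU cells. The part of luminal cells was not tested. Set against CD200R1+ non-MRU, 13 genes were lower and 2 higher in double-positive MRU, and 12 lower and 3 higher in remaining MRU cells, among them Has1, a hyaluronan synthase gene, at 14.3 ± 3.13 CPM in CD200+CD200R1+ MRU cells, 13.6 ± 8.82 CPM in remaining MRU cells and 783 ± 196 CPM in CD200R1+ non-MRU cells. Among all genes, 24.0% were lower and 22.8% higher in the first of these comparisons, and 21.6% and 22.4% in the second. The list medians were -1.81 and -1.55, beside 0.01 and 0.02. Against CD200+ non-MRU, 5 were higher and 6 lower in double-positive MRU (23.9% and 24.6% of all genes), and 7 higher and 6 lower in remaining MRU cells (24.1% and 20.1%). The fibroblast marker sums given above differ in the same direction as Cxcl2 between the non-MRU populations and as Has1. Between the non-MRU populations, macrophage markers were also lower in 10 of 10 cases in CD200+ cells. Cxcl2 averaged 2129 ± 484 CPM in CD200+CD200R1+ MRU cells and 1288 ± 272 CPM in remaining MRU cells. Fibroblast sums there were 968 to 1562 and 653 to 1239 CPM, and macrophage sums 2908 to 6103 and 1458 to 2338 CPM. The part of these cell types was not tested.

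Profiles most like each member were sought by the root mean square difference of centred log2 CPM over the 20 libraries, among 9028 genes with a mean of at least 10 CPM. The genes nearest to Il1a were C1qc, C1qa and Trem2, all well known macrophage genes, yet at a wide distance of 1.71 to 1.74 log2 units. Nearest to Il1b was Clec7a, at 0.86, and nearest to Il1rn were Ptpro, Cd68 and Tlr7, at 0.50 to 0.59. Il33 lay nearest to Vps37b (0.72), Il18 to Lsp1 (0.48) and Il1rl1 to Sult5a1 (1.03). Il1r1 lay nearest to Dlc1 (0.50), Il1r2 to Gpc3 (0.49) and Il1rap to Nedd4 (0.27).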

How the data were processed

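The authors deposited raw counts of reads per gene for 20 libraries (SMART-Seq V4, polyA RNA); per the submitters' processing notes, tools were cutadapt, STAR 2.4.2a, HTSeq and DESeq2 on GRCm38. The annotation release is not given in the sources used here, nor whether reads were counted by strand. The 20 normalized per-sample columns were not used.

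The members and gene lists were chosen with earlier results of these data known. Counts were fitted with edgeR 4.0.16 (R 4.3.3) in 1 quasi-likelihood model over all libraries, with filterByExpr, TMM scaling and population as the only term. P-values were Benjamini-Hochberg adjusted over 17236 genes, with a threshold of 0.05; the script was tested on simulated data. All 9 members are named. Of each pathway list, at most 4 genes with the smallest adjusted p per comparison are named, besides Ccl2 and Cxcl2 between the MRU populations. Likeness used log2 CPM with a prior count of 2. Exon lengths are the merged exons of all transcripts of a gene in GENCODE M21, which need not match the transcripts expressed.

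Alternatives were library size alone, DESeq2 1.42.0, voom (limma 3.58.1), no filter on low counts, the mouse as a block, only the 2 populations compared, and each library left out. Same-numbered samples come from the same mouse, per the labels; over 30 same-mouse pairs of libraries, deviations from the group means correlated at 0 to 0.26 (median 0.08, 9 over 0.1). No replicates agreed within sampling noise (chi-square per gene 12.02 to 83.17 over 40 pairs). Values for 3 counts cover counting error only.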

Additional observations from a re-analysis of the deposited data

Results flagged for a closer look

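Within each population, the highest and lowest of the 5 libraries were compared with the others for each member, 36 groups in all. In 3 groups 1 library stood apart by a gap over 0.71 of the group's range, where chance flags about 1 in 20 groups of normally distributed values. CPM were used untransformed and include values of 0, so that rate need not hold here.

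Il1a measured 0.6026 CPM (8 counts) in the CD200+ non-MRU library of mouse 4, against 0 to 0.0789 CPM in the other 4. Il1b measured 60.76 CPM in the CD200+ non-MRU library of mouse 6, against 2.05 to 13.4 CPM in the other 4. That library also had the highest macrophage marker sum of its group, 290 CPM against 91.8 to 167. Its sum of 8 neutrophil markers was highest too, 855 CPM against 227 to 579, with Ly6g and Elane at 0 throughout the group. The same held for 6 B cell markers (2138 CPM against 1175 to 1594) and 10 T cell and innate lymphoid markers (1279 CPM against 597 to 1078). The part of these markers was not tested. Il1rn measured 3.456 CPM in the CD200R1+ non-MRU library of mouse 6, against 21.7 to 25.5 CPM in the other 4, beside the lowest macrophage marker sum of its group, 1321 CPM, whose part was not tested.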

How the results depend on the processing

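Over 864 alternatives for single members, 851 kept the call, 13 gained one and 0 lost one. No value called in either fit changed sign, but 10 uncalled ones did, 7 of them for Il1a in CD200+CD200R1+ MRU over remaining MRU (-0.03, range -0.30 to 0.54); Il1rn in CD200+CD200R1+ MRU over CD200R1+ non-MRU, reported at 0.00, ranged over -0.27 to 0.44. Of the gained calls, 3 came from voom (Il1rl1 and Il1b, above). With the mouse as a block, member counts were 1, 6, 8, 6 and 6 as without it, except that all 9 passed in remaining MRU over CD200+ non-MRU (7 without the block). In that order, all-gene counts were 1719, 9344, 8789, 8418 and 7944 with the block and 1424, 9043, 8359, 8074 and 7595 without it. In remaining MRU over CD200+ non-MRU they were 8081 and 7608. With only the 2 populations compared, CD200+CD200R1+ MRU over remaining MRU gave 2546 genes in place of 1424; the cause was not tested. Leaving out 1 library at a time gave 1072 to 1283 genes there. Other ranges were 8542 to 9271 (CD200+ over CD200R1+ non-MRU), 7720 to 8061 and 7650 to 8218 (double-positive MRU over CD200+ and CD200R1+ non-MRU), and 6923 to 7305 and 7064 to 7697 (remaining MRU over the same). Scaling by library size alone moved the all-gene median (log2 scale) by 0.38 to 0.42 in the 3 comparisons with CD200R1+ non-MRU and called Il18 (0.84), Il1r2 (0.69), Il1rap (0.77) and Il33 (1.24) there, each about that shift above its reported value. Of pathway genes, Nfkbia reversed under that scaling in remaining MRU over CD200R1+ non-MRU (0.36, adjusted p = 0.00245, against -0.02, adjusted p = 0.886, by edgeR with TMM). Over 3356 pathway alternatives, 100 lost a call and 58 gained one. Depth limits Il1a in CD200+ non-MRU and Il1rl1 in remaining MRU, where some libraries have fewer than 3 counts.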
